A study of Mus musculus with 10 samples.

Results

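Anillin and the genes that act with it in cytokinesis were followed across the meiotic spindle and the rest of the mouse egg. The set holds 9 genes: Anln, Cit, Rhoa, Ect2, Racgap1, Kif23, Prc1, Kif20a and Cep55. A probe set, the group of array probes that reports 1 transcript, was taken where the platform annotation lists it with 1 gene and that gene is one of the 9. This gave 21 of 45101 probe sets, of which 17 lay above their array's median on at least 3 arrays and were tested, and 4 did not. Most genes were taken for their known roles, and Anln and Cep55 were chosen by their intensities in these same arrays, where both were known to be higher at the spindle. Differences of these 9 genes between the spindle and other samples are therefore given with their errors and without p-values.

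Cytokinesis divides the cell after the chromosomes have separated. Antiparallel microtubules between the chromosome sets form a central spindle, which recruits an activator of the small GTPase RhoA to the cortex, and active RhoA builds a contractile ring of actin and myosin that anillin scaffolds. The last bridge between the daughters is then cut in a step called abscission. In the oocyte this machinery runs at the very edge of the cell, where the small polar body is pinched off beside the spindle. The egg does this from RNA made earlier, since the fully grown oocyte transcribes little or nothing until after fertilisation.

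All samples came from female B6D2F1 mice given equine chorionic gonadotropin and, 48 h later, 5 IU of human chorionic gonadotropin, and eggs were taken 16 h after the second hormone and stripped of cumulus cells with hyaluronidase. Such eggs wait in metaphase II of meiosis (MII). 3 arrays hold the spindle-chromosome complex (SCC), the spindle with its chromosomes and whatever surrounded it when it was drawn out by microsurgery, 4 hold the cytoplast, which is the egg left behind, and 3 hold the intact MII oocyte. The sources used here give no mouse age and no number of eggs in a sample. The labels call the arrays biological replicates and name no animals or pools, so errors measure the spread between these samples.

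The arrays had median intensities of 15.6 to 16.6 and 95th percentiles of 526 to 797, and their number limits the precision. The 95th percentile was 719 ± 88.2 in the SCC (SD, n = 3) and 580 ± 46.2 in the cytoplast (n = 4, exact two-sided permutation p = 0.0571). The background level of an array was the 95th percentile over genes of other tissues, and it lay between 76.4 and 108. Of 16 oocyte marker genes, 15 exceeded it on every array. None of 15 cumulus and granulosa markers was, and 12 were above it on no array. The other 3 were Foxl2, Nr5a2 and Kitl, of which Nr5a2 averaged 145 in the SCC and 151 in the cytoplast. Kitl averaged 158 ± 41.1 in the SCC (SD, n = 3, all above background) and 96.1 ± 26.1 in the cytoplast (n = 4, 2 above), with limma adjusted p = 0.156. The list had a summed level of 584 to 714 on SCC arrays, 505 to 638 on cytoplast arrays and 529 to 648 on MII oocyte arrays. Hybridisation controls, bacterial and phage transcripts added in fixed amounts, fell into 6 dimmer arrays (mean log2 up to 10.68) and 4 brighter ones (11.11 and above), and the brighter were SCC 3, cytoplast 4 and MII oocyte 2 and 4. The difference between the 3′ and 5′ control probe sets of beta-actin, which grows as RNA or its copies shorten, was 3.42 ± 0.202 in the SCC (log2, SD, n = 3) and 4.62 ± 0.686 in the cytoplast (n = 4). The 2 groups did not overlap in it (exact two-sided permutation p = 0.0571), though SCC 2 at 3.65 nearly met cytoplast 4 at 3.66. The same 3′ to 5′ difference was also taken for Gapdh. It was 2.87 ± 0.482 in the SCC (log2, SD, n = 3) and 3.17 ± 0.558 in the cytoplast (n = 4). SCC and cytoplast arrays overlapped in the Gapdh difference (exact two-sided permutation p = 0.429). Each array received the same mass of labelled RNA, so values are shares of a sample's RNA, and more of 1 transcript cannot be told apart from less of the others.

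A sequence feature of start sites, which did not enter the choice of genes, was looked up. Many genes of mitosis carry the cell cycle homology region, TTTGAA, close to the transcription start, where a repressor complex holds them off outside the dividing cell. A window of 250 bases before to 50 bases after the start was found in RefSeq's table (GRCm38.p6) for 8 of the 9 genes, all but Kif20a. TTTGAA on either strand occurred in the window of 6 of them, Anln, Ect2, Racgap1, Kif23, Prc1 and Cep55, and not in those of Cit and Rhoa. Of all genes with a window there, 20.2% had it. The 30 bases around the match nearest to the start are shown because they set these 6 genes beside each other. Capitals mark the match, which reads TTCAAA where it lies on the opposite strand.

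Anln, chr9:22389168-22389197, minus strand, match 22 bases after the start: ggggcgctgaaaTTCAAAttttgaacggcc
Ect2, chr3:27153829-27153858, minus strand, 40 bases after: gagagagcgactggattttTTTGAAtcgga
Racgap1, chr15:99651634-99651663, minus strand, 6 bases after: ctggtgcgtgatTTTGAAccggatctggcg
Kif23, chr9:61946780-61946809, minus strand, 3 bases after: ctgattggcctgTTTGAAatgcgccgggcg
Prc1, chr7:80294434-80294463, plus strand, 5 bases before: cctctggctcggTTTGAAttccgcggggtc
Cep55, chr19:38054996-38055025, plus strand, 25 bases after: acagccgcgggaTTCAAActcccggaagcg

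Anln and Ect2 each held a second match, Anln on its own strand 29 bases after the start and Ect2 further upstream, at -114. CCAAT on either strand, the box bound by NF-Y, occurred in the windows of Ect2, Racgap1, Kif23 and Prc1, against 41.1% of all genes. No match of one overlapped a match of the other in these genes. The 6 genes with TTTGAA included those with the largest and some of the smallest spindle differences described next. A match is a string of letters, not a measured site.

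Of the 10 member probe sets above background on every array, which cover 8 of the 9 genes, 9 had a higher mean in the SCC than in the cytoplast, with a median log2 difference of 0.62. The 5907 probe sets of the whole array that met the same brightness rule had a median of 0.25, so bright probe sets in general leaned toward the SCC. The mean 95th percentile of the SCC arrays was higher too, and its part in this lean was not tested. Over all 17 tested, 13 were higher and 4 lower, with a median of 0.22 against 0.013 for all 23737 tested. In the limma fit, 5 of the 17 passed an adjusted p of 0.05 as higher in the SCC, where 6.74% of all probe sets did, and none as lower, where 0.274% did. Among probe sets above background on every array the share was 18.1%, and 4 of the 10 bright member probe sets were called. These 4 belong to Anln (both probe sets), Prc1 and Cep55. Anln and Cep55 were chosen because they were higher at the spindle. That choice built their differences into these counts and into the median of 0.62. The other bright member probe sets had log2 differences of -0.09 (Cit), 0.03 (Racgap1), 0.17 (Kif23), 0.22 (Ect2), 0.67 and 0.87 (Prc1) and 0.91 (Kif20a). Among those, only Prc1 1423775_s_at was called. The fifth call is a Kif23 probe set that was above background on no array, so it gives no reading of Kif23, whose bright probe set overlapped between the groups. The same 5 had every SCC array above every cytoplast array, as did 13.9% of all probe sets. Because these contrasts were known when the genes were chosen, the counts are descriptions, and both SCC contrasts use the same 3 SCC arrays.

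**Figure D1:**
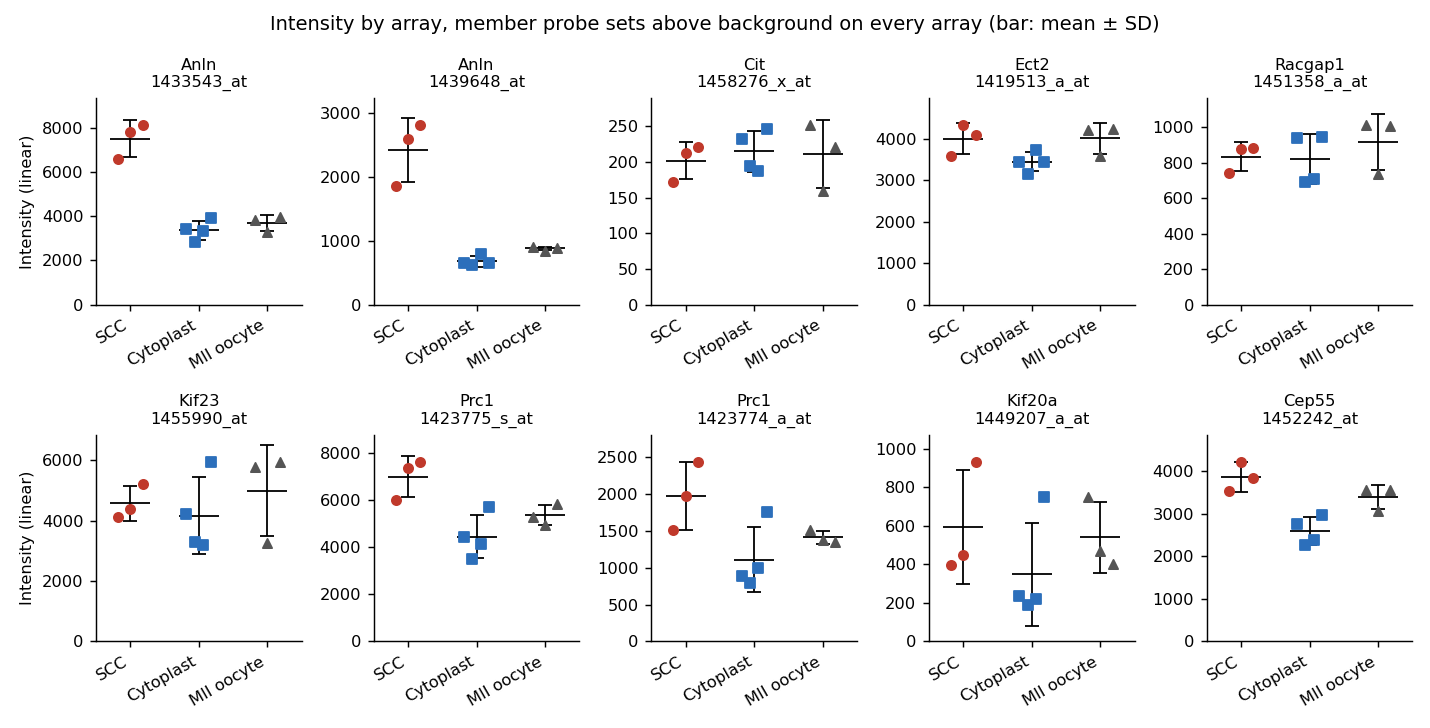
Intensity on each array (linear scale, points) for the 10 member probe sets above background on all 10 arrays, with bars for the group mean ± SD (SCC n = 3, cytoplast n = 4, MII oocyte n = 3). Anln stands apart in the SCC, 6566 to 8127 against 2826 to 3898 in the cytoplast, while Racgap1 and Kif23 1455990_at overlap in all 3 groups.

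The contractile ring is the place of anillin and citron kinase. Anln, whose product ties actin, myosin, septins and RhoA together at the furrow, had intensities of 6566, 7813 and 8127 on the SCC arrays. The same probe set (1433543_at) read 3405, 2826, 3336 and 3898 on the cytoplast arrays and 3819, 3278 and 3948 on those of the MII oocyte. Every SCC array lay far above every other array, while cytoplast and MII oocyte overlapped. The mean was 7502 ± 826 in the SCC (SD, n = 3), 3366 ± 439 in the cytoplast (n = 4), with 3682 ± 355 in the MII oocyte (n = 3). The SCC was 2.23-fold above the cytoplast (log2 difference 1.16, SE 0.14, 95% interval 0.86 to 1.46) and 2.04-fold above the MII oocyte (log2 1.03, 0.71 to 1.35).

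The other Anln probe set, 1439648_at, moved further. It read 1857, 2593 and 2809 on SCC arrays, 648, 618, 797 and 645 on cytoplast arrays and 899, 846 and 891 on MII oocyte arrays. The 3 groups did not overlap at all, and the order was SCC, then MII oocyte, then cytoplast. The SCC was 3.54-fold above the cytoplast (log2 1.82, SE 0.15, 1.49 to 2.15) and 2.71-fold above the MII oocyte (log2 1.44, SE 0.16, 1.08 to 1.79). Within each array the dimmer minus the brighter probe set was -1.82 to -1.53 (log2) in the SCC, -2.60 to -2.06 in the cytoplast, with -2.15 to -1.95 in the MII oocyte. The SCC arrays did not overlap with the others in that gap, so the 2 probe sets of the gene gave unequal sizes for the same direction.

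Both Anln probe sets, and no other of the 17, passed against the MII oocyte, where 0.0421% of all probe sets passed as higher and 0% as lower. Without a test, 5 of the 17 probe sets were higher in the SCC than on any MII oocyte array, where 8.71% of all were: both of Anln, 1 of Prc1, and faint ones of Rhoa and Kif23. 1 was lower throughout, a faint one of Cit, where 5.34% were. Anln's difference from the cytoplast was of like size among the dimmer arrays (log2 1.17 and 1.68) and among the brighter ones (1.06 and 2.12, with 1 array each). Against the MII oocyte the corresponding values were 1.13 and 1.37 (2 SCC arrays and 1 MII oocyte array), and 1.07 and 1.65 (1 and 2 arrays). Since Anln was chosen by its difference at the spindle, its passing restates that choice, and the settings only show how far the values move. Against the cytoplast, 1439648_at passed under all 22 other settings tried, and 1433543_at under 21, missing when the beta-actin 3′ to 5′ difference entered the fit (log2 1.13). Under that covariate only 6 probe sets of the whole array were called as higher, 1439648_at among them (log2 1.90). After cyclic loess the differences from the cytoplast fell to log2 0.84 (1433543_at) and 1.55 (1439648_at), and after quantile normalization to 0.96 and 1.51. Each of these falls was larger than the spread between replicates. Over all 22 settings the difference of 1433543_at from the cytoplast ran from 0.84 to 1.25, and that of 1439648_at from 1.51 to 2. Neither Anln probe set passed against the MII oocyte without SCC 2, SCC 3, cytoplast 1 or MII oocyte 2. Both also missed with the arrays of the 2 groups alone. In each of these settings 0% of all probe sets passed as higher. 1433543_at also missed without cytoplast 3 or MII oocyte 4, above the 75th percentile and with the beta-actin covariate. Over all 22 settings the difference of 1433543_at from the MII oocyte stayed between 0.89 and 1.13, and that of 1439648_at between 1.31 and 1.62.

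Cit, citron kinase, which binds active RhoA and keeps the late ring and midbody in order, did not share Anln's rise. Its brightest probe set, 1458276_x_at, read 172, 213 and 220 on SCC arrays, 232, 194, 187 and 246 on cytoplast arrays and 252, 159 and 221 on MII oocyte arrays. These overlap throughout, and the SCC minus cytoplast difference was -0.09 (log2, 95% interval -0.47 to 0.29). Another probe set, 1455609_at, read 94.0, 97.3 and 137 in the SCC against 189, 142, 154 and 130 in the cytoplast. Only SCC 3, a brighter array, reached into the cytoplast range. The difference was -0.50 (SE 0.20, -0.93 to -0.07), -0.75 among the dimmer arrays and 0.08 between the single brighter arrays. It passed as lower after quantile normalization (log2 -0.70), with array weights and in the dimmer arrays alone, and not otherwise. 2 further Cit probe sets were faint. 1426028_a_at, at 79.6 to 93.9 in the SCC and 94.5 to 99.8 in the cytoplast, was above background on no SCC array and all 4 cytoplast arrays, and was the only member probe set lower without overlap, where 5.89% of all probe sets were. 1427669_a_at was below background everywhere (26.7 to 52.0).

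RhoA and its activator form the switch that starts the ring. Ect2 encodes the exchange factor that loads RhoA with GTP, and its probe set 1419513_a_at read 3595, 4336 and 4087 in the SCC, 3433, 3163, 3728 and 3452 in the cytoplast, with 4216, 3586 and 4245 in the MII oocyte. The groups overlapped in each comparison. The SCC minus cytoplast difference was 0.22 (log2, SE 0.12, -0.04 to 0.47), close to the 0.25 of bright probe sets in general, and the SCC minus MII oocyte difference was 0.00 (-0.28 to 0.27). The interval leaves out a rise of the size seen for Anln. The sign against the cytoplast turned after cyclic loess (log2 -0.10) and quantile normalization (log2 -0.03).

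Rhoa itself could hardly be read. Its probe set 1437628_s_at lay between 60.3 and 90.4 over the 10 arrays and was above background on 1 of them, and 1443768_at stayed between 5.37 and 7.37. The remaining one, 1450632_at, read 61.3, 103 and 53.4 on SCC arrays, 50.9, 61.0, 48.4 and 32.8 on cytoplast arrays and 45.7, 41.0 and 51.6 on MII oocyte arrays. SCC 2 alone passed the background level. No fold is given for Rhoa, and its low reading on this array is no measure of its amount against other genes.

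Centralspindlin is a complex of the kinesin Kif23 and the GTPase-activating protein Racgap1 that bundles midzone microtubules and brings Ect2 to them. Racgap1 (1451358_a_at) read 743, 877 and 885 in the SCC, 942, 694, 706 and 946 in the cytoplast, with 1014, 737 and 1005 in the MII oocyte. All 3 groups overlapped, and the sign of the difference varied with the setting (log2 -0.27 to 0.12). The SCC minus cytoplast difference was 0.03 (log2, SE 0.16, -0.32 to 0.39). Of its other probe sets, 1421546_a_at lay between 65.7 and 98.7 and above background on 1 MII oocyte array, and 1441889_x_at between 4.73 and 6.29.

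Kif23 gave a similar picture on its bright probe set and another on a faint one. 1455990_at read 4113, 4384 and 5221 on SCC arrays, 4226, 3296, 3205 and 5939 on cytoplast arrays and 5768, 3253 and 5952 on MII oocyte arrays. The highest array of each group was one with brighter hybridisation controls, and the lowest was a dimmer one. The SCC minus cytoplast difference was 0.17 (log2, SE 0.25, -0.37 to 0.72), 0.26 among the dimmer arrays and -0.19 between the brighter ones, and over all settings it ran from -0.15 to 0.36. The faint 1453748_a_at read 59.1, 53.2 and 31.6 in the SCC, 20.7, 25.9, 25.1 and 15.6 in the cytoplast, with 23.8, 18.9 and 27.5 in the MII oocyte. It was above background on no array, so its order between the groups and its call against the cytoplast give no level of Kif23 and no fold. The call was lost without SCC 1, SCC 2 or cytoplast 1 and with the beta-actin covariate. The third, 1450827_at, stayed between 8.57 and 13.9.

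Prc1 and Kif20a work on the bundled microtubules themselves. Prc1 crosslinks antiparallel microtubules, and both of its probe sets had higher means in the SCC. 1423775_s_at read 6016, 7354 and 7641 on SCC arrays, 4454, 3517, 4130 and 5726 on cytoplast arrays and 5301, 4968 and 5826 on MII oocyte arrays. No SCC array overlapped with any other array. The SCC was 1.59-fold above the cytoplast (log2 0.67, SE 0.16, 0.31 to 1.02) and 1.30-fold above the MII oocyte (log2 0.38, 0.00 to 0.76). It passed against the cytoplast only, and not without SCC 2, SCC 3 or cytoplast 1, 2 or 3, nor after cyclic loess (log2 0.34) or with the beta-actin covariate (log2 0.52).

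The dimmer Prc1 probe set, 1423774_a_at, read 1505, 1974 and 2439 in the SCC and 894, 792, 1000.1 and 1757 in the cytoplast. Cytoplast 4, again a brighter array, reached above SCC 1. The difference was 0.87 (log2, SE 0.25, 0.33 to 1.41), which missed the threshold, and it passed without cytoplast 4 (log2 1.12), without SCC 1, without MII oocyte 3 and in 6 other settings. The MII oocyte lay between, at 1510, 1379 and 1342.

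Kif20a, a kinesin that carries cargo along the midzone, varied widely within each group. It read 395, 451 and 933 in the SCC, 238, 189, 220 and 748 in the cytoplast, with 751, 469 and 401 in the MII oocyte. The highest value of each group came from a brighter array. MII oocyte 4, also brighter, was the lowest of its group. The SCC minus cytoplast difference was 0.91 (log2, SE 0.45, -0.08 to 1.89), 0.98 among the dimmer arrays and 0.32 between the brighter ones. It passed only without cytoplast 4 (log2 1.36) and in the dimmer arrays alone, and fell to -0.15 with the beta-actin covariate.

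**Figure D2:**
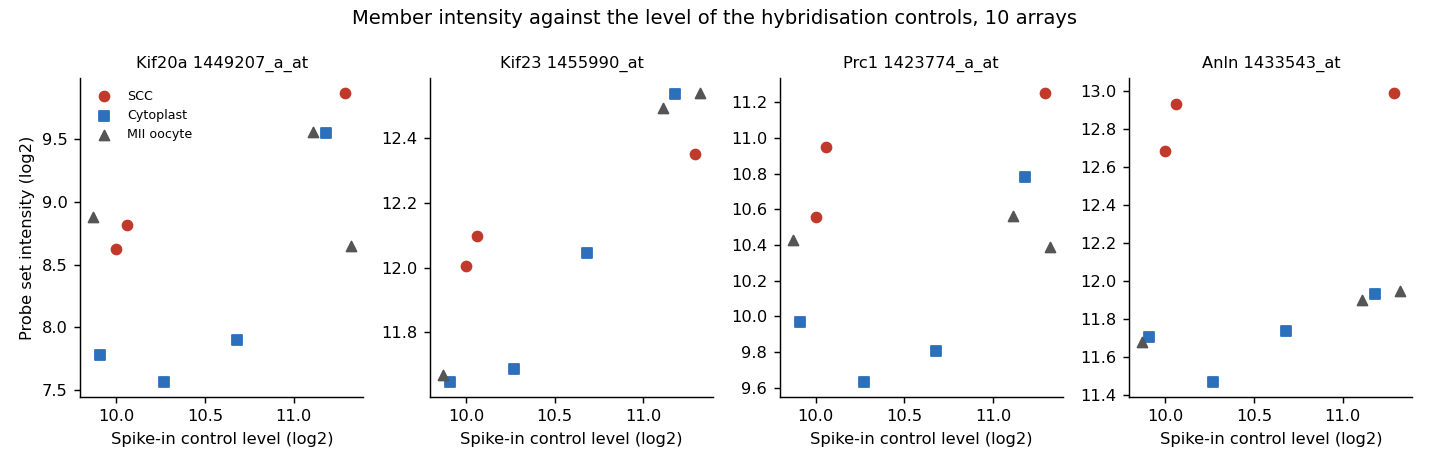
Log2 intensity of 4 member probe sets (vertical axis) against the mean log2 level of the hybridisation controls (horizontal axis) on the 10 arrays, marked by group. Kif23 1455990_at is highest on the 4 arrays with controls of 11.11 and above, whereas Anln in the SCC stands above the other groups at either control level.

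Cep55, which gathers the abscission machinery at the midbody, was the remaining member with a higher level in the SCC. Its probe set 1452242_at read 3528, 4225 and 3850 on SCC arrays, 2748, 2262, 2392 and 2964 on cytoplast arrays and 3563, 3055 and 3558 on MII oocyte arrays. SCC and cytoplast did not overlap, nor did MII oocyte and cytoplast, while SCC and MII oocyte did. The SCC was 1.50-fold above the cytoplast (log2 0.58, SE 0.13, 0.30 to 0.87) and 1.14-fold above the MII oocyte (log2 0.19, -0.11 to 0.49). It missed the threshold against the cytoplast without SCC 2, SCC 3 or cytoplast 1, 2 or 3, after cyclic loess (log2 0.27) or quantile normalization (log2 0.32), or with the beta-actin covariate (log2 0.58). The other Cep55 probe set, 1453683_a_at, was at 6.74 to 10.0.

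**Figure D3:**
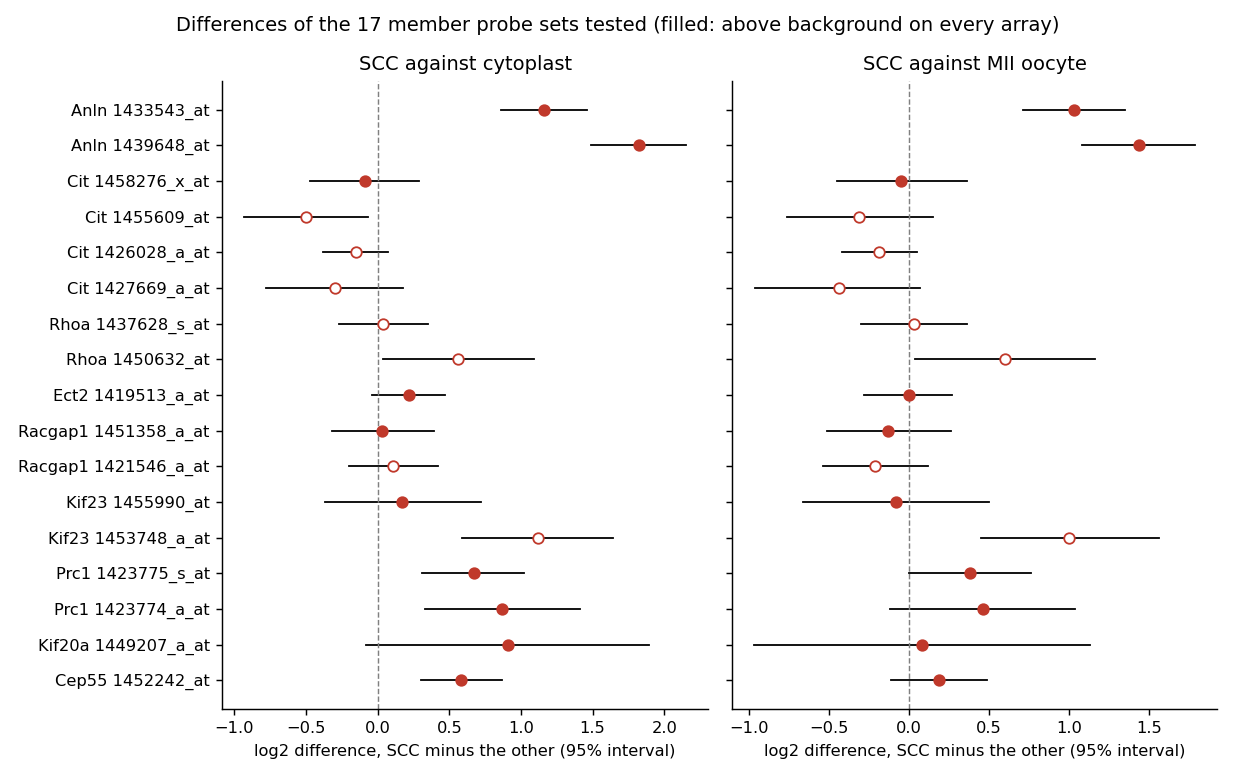
Log2 differences (SCC minus cytoplast, left, and SCC minus MII oocyte, right) of the 17 member probe sets tested, with 95% intervals from limma; filled points were above background on every array. Anln 1439648_at lies furthest right in both panels (1.82 and 1.44), and 3 of the 4 Cit probe sets lie at -0.15 or lower on the left. These 3 are open points, and the filled Cit point is at -0.09.

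The cytoplast and the intact egg, which differ by the removed spindle and by the microsurgery itself, were compared with the same fit. None of the 17 member probe sets passed the limma test (adjusted p from 0.926 to 0.993), 3 had an unadjusted p under 0.05, as did 4.44% of all, and 0% of all 23737 probe sets passed in either direction. The means leaned down in the cytoplast in 14 of 17. Bright probe sets in general leaned the same way, with a median log2 difference of -0.17 over the 5907 above background on every array. That of the 10 bright member probe sets was -0.27. 3 were lower there with no overlap, where 3.83% of all probe sets were: Anln 1439648_at (log2 -0.38, SE 0.15), Cep55 (log2 -0.39, SE 0.13) and Racgap1 1421546_a_at, which was near background. Of the 10 bright member probe sets the MII oocyte mean fell between SCC and cytoplast in 7, against 59.7% of all probe sets of that brightness.

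The genes whose profile over the 10 arrays was closest to that of Anln 1433543_at came from other processes. Likeness was the root mean square difference between log2 values centred on each probe set's mean. The closest were Atp6ap2, an accessory protein of the vacuolar proton pump (0.114), Gtpbp10 (0.131), the doublecortin-like kinase Dclk2 (0.134), the kinetochore motor Cenpe (0.140) and the lysosomal membrane protein Lamp2 (0.143). Cenpe averaged 5092 in the SCC and 2642 in the cytoplast, with 2957 in the MII oocyte. Atp6ap2 averaged 3923, 1947 and 2060 in the same order. Among the other members, Prc1 was closest to Anln (0.273), then Cep55 (0.340) and Ect2 (0.460), and Kif20a was furthest (0.651). Cep55 was chosen as higher at the spindle, as Anln was, so its place restates that choice. Racgap1, which overlapped in all 3 groups, was at 0.531 and the hardly readable Rhoa at 0.511. Distances of about that size, Ect2's among them, therefore show no likeness to Anln.

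Further genes of the ring, the midzone and abscission were taken as a list, in which 71 had a probe set of their own and 64 a tested one. Set against the cytoplast, 10 of the 64 rose in the SCC and 0 fell, with a median log2 difference of 0.18, where 8.05% of all 12713 genes rose and their median was 0.02. Brightness moved with this: of the 38 list genes above background on every array, 9 rose and the median was 0.26, while 18.4% of all 4068 genes of that brightness rose, with a median of 0.24. The 16 oocyte markers had a median of 0.35, with 1 called. In size, the largest difference of the list was downward, Actb at log2 -1.08 (140 against 304, limma adjusted p = 0.0557). Exoc4 was at -0.74, and neither gene's SCC and cytoplast arrays overlapped. The list was written with earlier results of these arrays known, so its counts and p-values are descriptions and support nothing about the 9 genes. Rock1, the RhoA-activated kinase, was at 5810 ± 670 in the SCC (SD, n = 3) and 3166 ± 452 in the cytoplast (n = 4), 1.84-fold higher (log2 0.88, SE 0.14, limma adjusted p = 0.00608). Ppp1r12a, the targeting subunit of myosin phosphatase, was 2.01-fold higher (4660 against 2321, adjusted p = 0.00944). Myl12b, a myosin light chain, was 1.81-fold higher (176 against 97.5, adjusted p = 0.0254), and the GTPase Cdc42, which shapes the oocyte's polar cortex, 2.02-fold (3103 against 1575, adjusted p = 0.0247).

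Myl12b was the only one of 6 tested myosin chains and light chain kinase to pass, with Mylk at -0.15 and Myh9 at -0.37 (log2). Mylk was above background on no SCC or cytoplast array, so its value is no reading. Myl12b itself lay near background in the cytoplast and above it on 3 of the arrays there. Incenp, the scaffold of the chromosomal passenger complex, was 1.63-fold higher (5324 against 3237, adjusted p = 0.0187), and Septin7, a filament protein that binds anillin, 1.82-fold (494 against 279, adjusted p = 0.0397). It was the only one of 6 tested septins to pass, with Septin6 at -0.33 and Septin9 at -0.26 (log2). Those 2 were above background on no SCC or cytoplast array, so their values are no readings. Chmp1b, an ESCRT-III subunit, was 2.06-fold higher (269 against 130, adjusted p = 0.0110), and the other 4 tested Chmp genes did not pass. Of these, Chmp3, Chmp4b and Chmp4c were above background on no SCC or cytoplast array. Spast, which severs the bridge's microtubules, was 1.80-fold higher (2306 against 1281, adjusted p = 0.0217), Cntrob 1.52-fold (adjusted p = 0.0278) and Tsg101, the ESCRT-I protein that Cep55 recruits, 1.48-fold (adjusted p = 0.0417). The arrays of the 2 groups did not overlap for any of the 10. Only 3 of them, Cdc42, Myl12b and Chmp1b, passed after cyclic loess, 2 after quantile normalization (Cdc42 and Chmp1b) and none with the beta-actin covariate. Only Rock1 passed without SCC 2, as without SCC 3, and Rock1, Ppp1r12a and Chmp1b without cytoplast 1, as without cytoplast 2. Against the MII oocyte none of the 64 passed (smallest adjusted p = 0.142 by limma), with 15 at an unadjusted p under 0.05, as had 13.3% of all genes. In the comparison of cytoplast and MII oocyte none passed, with 1 at an unadjusted p under 0.05 against 4.66% of all genes.

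**Figure D4:**
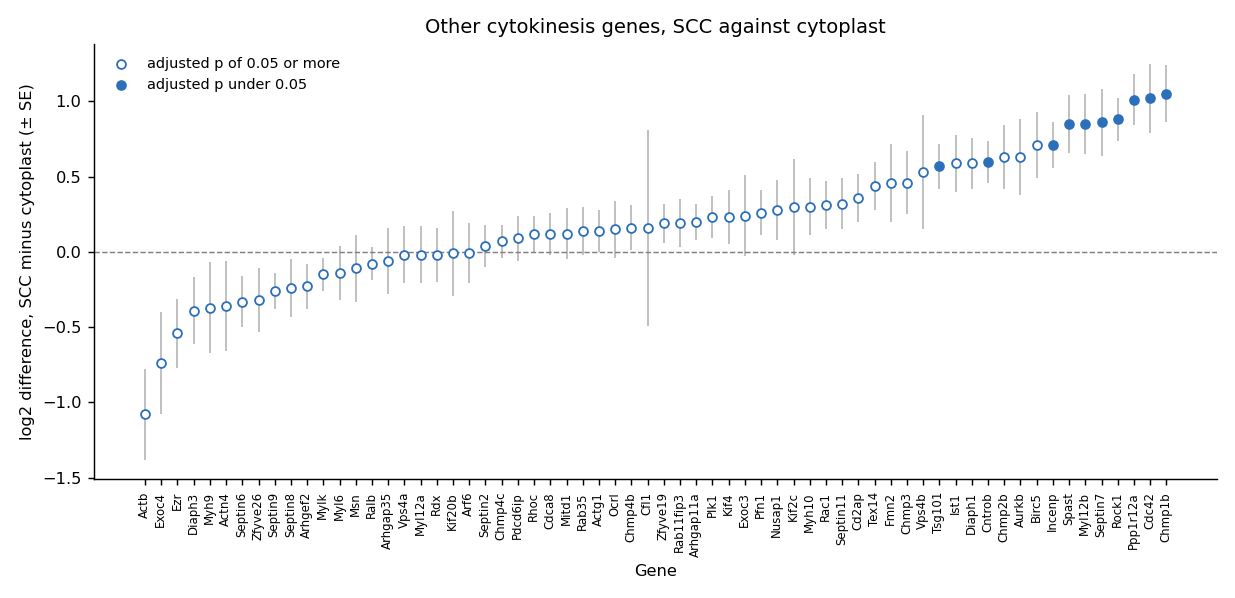
Log2 difference, SCC minus cytoplast, with its standard error for the 64 tested genes of the further cytokinesis list (1 probe set a gene, in order of size). Filled points mark the 10 with a limma adjusted p under 0.05, from Tsg101 at 0.57 to Chmp1b at 1.05.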

How the data were processed

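RNA from 10 samples was amplified in 2 rounds of cDNA synthesis from up to 50 ng, and each 1-colour array received 10 µg of labelled cRNA, per the labels' protocols. The authors deposited intensity values on a linear scale. The submitters' processing notes name RMA, a method that subtracts background, equalises arrays and combines the probes of a set. Its version and options are not stated in what was used here. The deposited arrays still differed in their 95th percentiles (526 to 797). Samples were grouped by their titles.

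Here log2 was taken and limma 3.58.1 (R 4.3.3) fitted 1 mean per group over all arrays on the 23737 probe sets above the array median on at least 3 arrays, controls left out, with Benjamini-Hochberg adjustment over all of them at 0.05. Folds are 2 to the power of the fitted log2 difference. The script was tested on simulated data. Array measures were compared by exact permutation, 15 tests not adjusted for their number. The annotation ties 34945 probe sets to 1 gene, 932 to several (not used) and 9160 to none. Names are those of the platform annotation, and 34741 of the first matched RefSeq's table by gene ID, as did all 9 members. Probe sets ending in _s_at or _x_at may also detect related transcripts.

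All member probe sets were named, the list genes past the threshold, and the 5 genes closest to Anln. Listed genes were read from their brightest tested probe set. The members and lists were chosen with earlier results of these data known; pancreatic genes were kept out of the list of other tissues because 1 was known to be bright here. Arrays of equal replicate number are not said to share eggs, and their residuals correlated at 0.0214 on average over 8 pairs (-0.304 to 0.614).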

Additional observations from a re-analysis of the deposited data

Results flagged for a closer look

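Kif20a (1449207_a_at) on cytoplast 4 read 748, far from the nearest other cytoplast array at 238. The gap took 0.832 of the group's range on the log2 scale, past Dixon's limit for 4 samples. It was the only 1 of 17 tested member probe sets to do so among the cytoplast arrays, and chance marks about 1 group in 20. Cytoplast 4 is the cytoplast array with brighter hybridisation controls, whose part in this value was not tested. Groups of 3 arrays were not examined this way.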

How the results depend on the processing

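Over 1119 recomputed differences of member probe sets, 1077 moved by less than the spread between replicates, 42 moved further, and no called difference changed sign. The count of 5 member probe sets that rose in the SCC over the cytoplast fell to 3 after cyclic loess and to 1 with the beta-actin covariate, and ran from 2 to 7 with single arrays left out. The share over all probe sets moved too, from 6.74% to 2.13% and 0.0253%, and from 1.02% to 8.61% with single arrays left out. The count of 2 against the MII oocyte fell to 1 above the 75th percentile and with the beta-actin covariate, and to 0 with the arrays of the compared groups alone. It ran from 0 to 2 with single arrays left out. The share over all probe sets was 0.0668%, 0.0169% and 0% in the first 3 of these, and 0% to 1.87% with single arrays left out. No member was lower than in the cytoplast, except 1 (Cit 1455609_at) after quantile normalization, with array weights and in the dimmer arrays. In the comparisons with the MII oocyte no member was lower, setting the dimmer arrays aside. These hold 1 MII oocyte array, against which Kif20a in the cytoplast stood at log2 -1.13. With single arrays left out, lower counts stayed at 0, as did both counts of cytoplast against MII oocyte. The 10 further cytokinesis genes fell to 3 after cyclic loess, 2 after quantile normalization and 0 with the beta-actin covariate, and ran from 1 to 12 with single arrays left out. Genes of that list called lower numbered 1 after cyclic loess, 1 after quantile normalization and at most 2 in any setting. With replicate numbers as a block, 6 member probe sets were higher than in the cytoplast and 2 than in the MII oocyte, and no call was lost. The shares over all probe sets were then 7.73% and 0.527%. The beta-actin measure itself differs between the groups, so this covariate and the groups cannot be fully told apart. Whether the measure follows the length of the RNA or the level of Actb was not tested. Settings using the hybridisation controls as groups were chosen after seeing the data. A background level at the 90th percentile put 14 member probe sets above it on every array, against 10. Faint probe sets, those of Rhoa above all, limit what can be read.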
